A study of Rattus norvegicus with 10 samples.

Results

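The NMDA receptor subunits were described by the 13 probe sets that the platform annotation assigns to 1 gene among Grin1, Grin2a, Grin2b, Grin2c, Grin2d, Grin3a and Grin3b, of 31042 probe sets tested in all. All 7 genes were measured: Grin2a by 3 probe sets, Grin1, Grin2b, Grin2d and Grin3b by 2 each, and Grin2c and Grin3a by 1 each. Each of 10 Affymetrix arrays carried total RNA of the right brain, cut from the left at the midline, of 1 male Wistar rat aged 7 weeks. The control group (n = 5) inhaled vapor of distilled water for 5 min, and the DMHF group (n = 5) inhaled for the same time the vapor of DMHF, a furanone with methyl and hydroxy groups that is known for its strawberry-like and caramel-like smell. The brains were taken 10 min after the end of inhalation, before the dark period, and the labels name no engineered allele. The design asks which brain transcripts differ between the groups at that time.

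The NMDA receptor is a glutamate-gated cation channel that opens when glutamate and a co-agonist, glycine or D-serine, are bound and the membrane is depolarised enough to expel magnesium from its pore. It then passes calcium, which starts the signalling that strengthens or weakens excitatory synapses. Every receptor contains the GluN1 subunit, encoded by Grin1, together with GluN2 subunits (Grin2a to Grin2d), which bind glutamate, or GluN3 subunits (Grin3a and Grin3b), which bind glycine. In the adult forebrain GluN2A and GluN2B are the main partners of GluN1, whereas GluN2C is best known from cerebellar granule cells and GluN2D from the diencephalon, midbrain and some interneurons.

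The deposited log2 values of a probe set differed very little between arrays. The SD over the 10 arrays had a median of 2.20 millionths of a log2 unit over all probe sets and a 95th percentile of 18.9. Values are therefore given as deviations from the mean of the 5 control rats, in millionths of a log2 unit, and differences are also divided by the probe set's own within-group SD, pooled over both groups. A deviation can be compared between rats for 1 probe set but not between probe sets, and it is no fold change of RNA. Array medians lay within 15.2 millionths of each other, a range wider than the median SD of 2.20, so shifts of whole arrays can weigh on small differences. There were 0 pairs of identical arrays, and all 8 pan-neuronal marker genes had mean levels above the median level of 7.24 over all probe sets. In bulk tissue, fewer cells of a type and less RNA per cell cannot be told apart.

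No NMDA receptor subunit passed the test for a difference between DMHF and control rats, and the probe sets with the lowest values in DMHF relative to control were those of Grin2a and Grin2b. By limma over all probe sets, 0 of the 13 reached an adjusted p under 0.05 (0% of all probe sets did), and the smallest adjusted p among them was 0.787, for Grin2a. Mean levels were nominally lower in DMHF for 6 of the 13 (46.8% of all probe sets), namely all 3 probe sets of Grin2a, both of Grin2b and 1 of Grin1, and nominally higher for 7. At an unadjusted p under 0.05 by limma, 2 probe sets were listed lower, both of Grin2a, where 2.25% of all probe sets were listed lower, and 0 were listed higher, where 3.23% of all probe sets were. The count of 2 depended on single rats, and the share of all probe sets listed lower in the same fit is given in brackets. It was 4 without control rat 2 (2.58%) or DMHF rat 2 (1.91%). It was 1 without control rat 1 (1.96%), 3 (2.40%) or 4 (1.95%) or DMHF rat 1 (3.04%) or 4 (1.85%). It was also 1 with the replicate number as a block, and after quantile normalization, which left 5 of the 13 to test. With 1 probe set per gene, the brightest, 7 of the 13 were tested and the count was 1. Both probe sets in the count of 2 were of Grin2a, and that selection could hold only 1 of them. The lower count there was thus fixed by the selection and shows no dependence on the processing. Without DMHF rat 4 a single probe set was listed higher, of Grin3b. The exact permutation test over the 252 assignments of the arrays listed the same 2 at an unadjusted p under 0.05, where 2.05% of all probe sets were listed lower. For 0 of the 13 did the rats of one group all lie outside the range of the other, against 0.332% of all probe sets with every DMHF rat below and 0.535% with every DMHF rat above. The median difference over the 13 was 0.0229 within-group SD, and over all probe sets it was 0.0528.

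**Figure D1:**
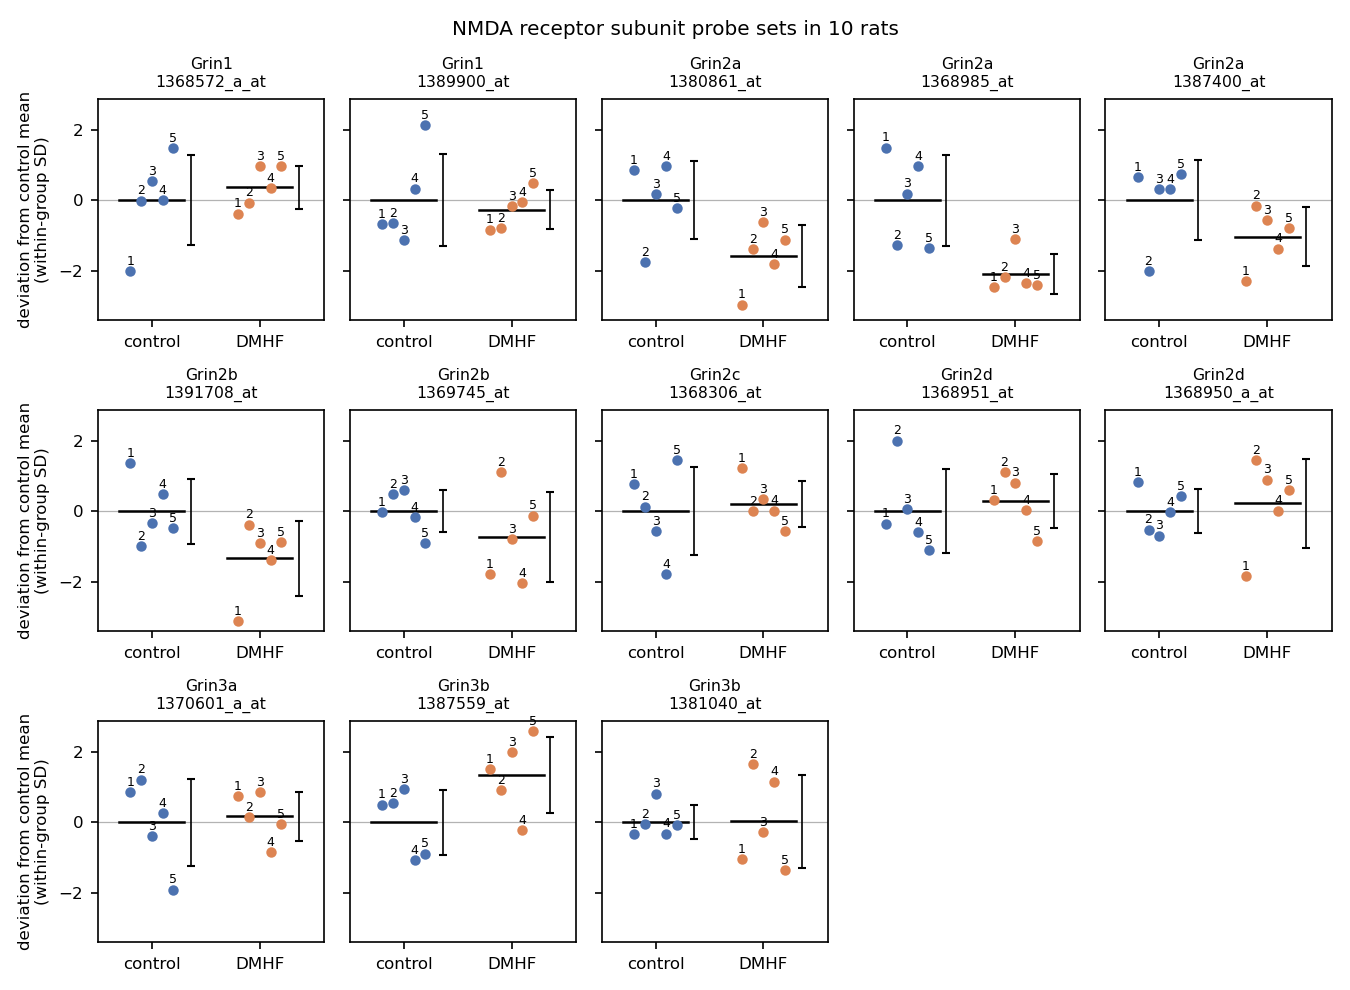
Deviation of each rat from the control mean, in within-group SD, for the 13 probe sets of the NMDA receptor subunits. Points are single rats with their replicate number, horizontal lines are group means and bars are ± 1 SD (n = 5 per group). The DMHF rats lie below the control mean in all 3 Grin2a panels, and every panel shows overlap between the groups.

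Grin1, which encodes the subunit shared by all NMDA receptors, had no difference beyond the spread between rats. Its brighter probe set, 1368572_a_at, had a mean level of 10.06 on the deposited log2 scale. The control rats, in the order of their replicate numbers, lay at -1.04, -0.008, 0.282, 0.002 and 0.762 millionths from the control mean, and the DMHF rats at -0.198, -0.038, 0.502, 0.182 and 0.502. The DMHF values thus lay wholly within the range of the control values, whose extremes were control rats 1 and 5. The difference was 0.190 millionths (SE 0.377), or 0.368 SD with a 95% confidence interval from -1.29 to 2.02 (limma unadjusted p = 0.626). The other probe set of Grin1, 1389900_at, spread far more widely. Its control rats ran from -48.0 to 90.5 millionths and its DMHF rats from -35.6 to 20.8. The difference of -11.4 millionths (SE 25.6), or -0.268 SD with an interval from -1.63 to 1.10, turned to 11.2 without control rat 5, the highest of the 10.

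Grin2a, which encodes the GluN2A subunit that becomes prominent at forebrain synapses as the brain matures, was nominally lower in DMHF on each of its 3 probe sets. On each of them all 5 DMHF rats lay below the control mean. The share of all probe sets for which this held is not given here. The 3 probe sets were alike across the rats (r from 0.65 to 0.89), so they are not separate results. The probe set 1368985_at, with a mean level of 7.76, had control rats at 181, -154, 22.1, 117 and -166 millionths, and DMHF rats at -297, -264, -133, -285 and -291. The groups overlapped through 1 DMHF rat, number 3, which lay above control rats 2 and 5, while the other 4 DMHF rats lay below all controls. The controls spread more widely (SD 157 millionths) than the DMHF rats (SD 68.8). The difference was -254 millionths (SE 72.8), or -2.10 SD with a 95% confidence interval from -3.46 to -0.735. Its unadjusted p was 0.00702 by limma and 0.0238 by the exact two-sided permutation test, and its adjusted p over all probe sets was 0.787 by limma and 0.915 by the permutation test. A difference this low or lower, in within-group SD, was found for 0.506% of all probe sets. The difference was negative with each single rat left out, from -295 without control rat 5 to -209 without control rat 1.

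The brightest probe set of Grin2a, 1380861_at, with a mean level of 8.16, had control rats at 26.0, -53.9, 5.25, 29.4 and -6.84 millionths. Its DMHF rats lay at -90.9, -42.4, -19.2, -55.6 and -34.1. Control rat 2 stood apart from the other 4 controls and within the DMHF range, and those 4 lay above every DMHF rat. The difference was -48.5 millionths (SE 18.4), or -1.59 SD with an interval from -2.95 to -0.221 (limma unadjusted p = 0.0275, adjusted p = 0.868; exact permutation p = 0.0397). It was -61.9 without control rat 2 (limma unadjusted p = 0.00328) and -41.1 without control rat 4 (0.0649). After quantile normalization it was -6.73 (limma unadjusted p = 0.530), whereas that of 1368985_at was -184 (0.00198). The dimmest probe set, 1387400_at, at a mean level of 7.10 and so below the median level of 7.24, had control rats at 2.94, -9.15, 1.42, 1.47 and 3.32. Its DMHF rats lay at -10.5, -0.693, -2.54, -6.29 and -3.58. Again 4 control rats lay above every DMHF rat and control rat 2 lay low, beside DMHF rat 1. The difference was -4.72 millionths (SE 2.74), or -1.04 SD with an interval from -2.41 to 0.332 (limma unadjusted p = 0.120). Control rat 2 decided much of this value, which was -7.00 without it (limma unadjusted p = 0.00608) and -3.28 without DMHF rat 1 (0.256).

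**Figure D2:**
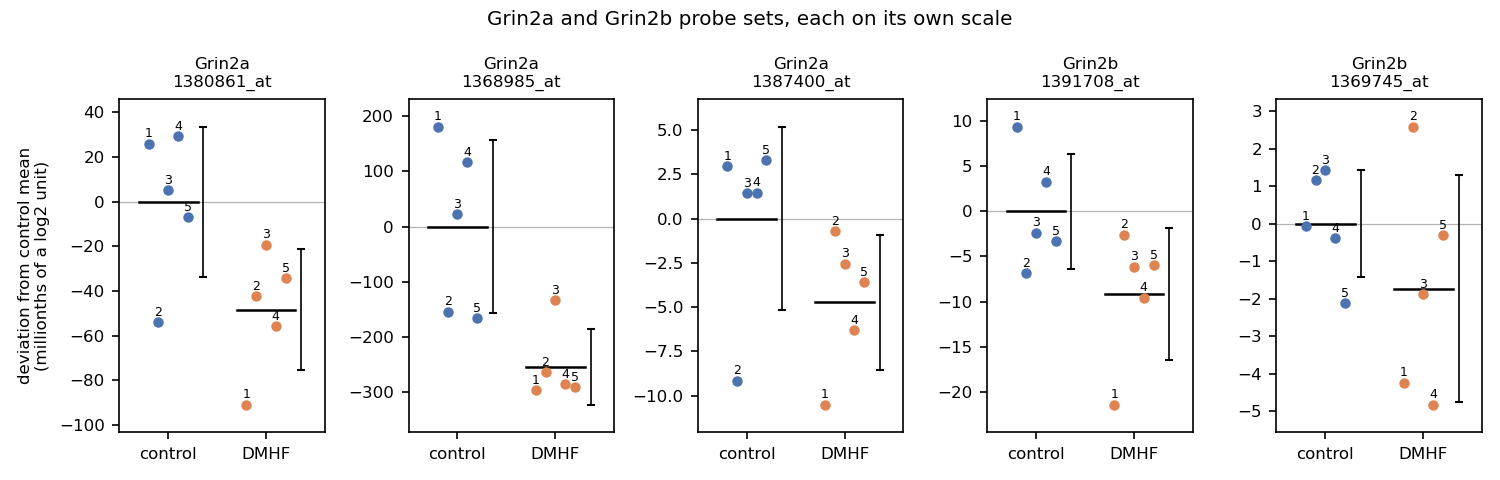
Deviation of each rat from the control mean, in millionths of a log2 unit, for the 3 probe sets of Grin2a and the 2 of Grin2b, each panel with its own vertical scale. Points are rats with their replicate number, lines are group means and bars are ± 1 SD (n = 5 per group). DMHF rat 1 is the lowest rat in 4 of the 5 panels, and control rat 2 lies among the DMHF rats in the 3 Grin2a panels.

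Grin2b, which encodes the GluN2B subunit of the developing brain and adult forebrain, was nominally lower on both of its probe sets and passed the test on neither. The brighter one, 1391708_at, with a mean level of 8.03, had control rats at 9.33, -6.86, -2.38, 3.27 and -3.36 millionths and DMHF rats at -21.4, -2.61, -6.14, -9.56 and -6.01. All 5 DMHF rats lay below the control mean, and DMHF rats 1 and 4 lay below every control. The difference was -9.15 millionths (SE 4.12), or -1.34 SD with an interval from -2.70 to 0.0291 (limma unadjusted p = 0.0541, adjusted p = 0.931; exact permutation p = 0.0714). DMHF rat 1, the lowest of the 10, weighed most on it: without that rat the difference was -6.08 (limma unadjusted p = 0.101). The array of that rat also deviated most from its group mean over all probe sets. Its median absolute deviation was 0.800 within-group SD, against 0.579 to 0.703 for the other arrays, and its array weight of 0.629 was the smallest. The other probe set, 1369745_at, with a mean level of 7.47, had control rats at -0.0696, 1.16, 1.43, -0.386 and -2.13 and DMHF rats at -4.24, 2.59, -1.87, -4.83 and -0.306. Here DMHF rat 2 was the highest of the 10 and DMHF rats 1 and 4 were the lowest. The difference was -1.73 millionths (SE 1.44), or -0.732 SD with an interval from -2.11 to 0.648 (limma unadjusted p = 0.260). It ranged from -2.81 without DMHF rat 2 to -0.955 without DMHF rat 4.

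Grin2c and Grin2d, the other genes for glutamate-binding subunits, differed by less than the spread between rats. Grin2c, measured by 1368306_at at a mean level of 9.57, had control rats at 1.76, 0.302, -1.31, -4.13 and 3.38 millionths and DMHF rats at 2.84, -0.0036, 0.808, 0.0334 and -1.32. All DMHF rats lay within the control range. The difference was 0.471 millionths (SE 1.41), or 0.204 SD with an interval from -1.18 to 1.58, and its sign changed without control rat 4 (-0.562) or DMHF rat 1 (-0.121). The Grin2d probe sets lay at mean levels of 6.83 (1368951_at) and 6.28 (1368950_a_at), below the median level over all probe sets, and whether their signal exceeded the background of the arrays was not tested. Their differences were 0.518 (SE 1.14) and 1.63 millionths (SE 4.45), that is 0.279 SD (interval -1.11 to 1.67) and 0.220 SD (interval -1.15 to 1.59). That of 1368951_at ran from 0.00965 without control rat 5 to 1.44 without control rat 2. For 1368950_a_at the control rats ran from -5.12 to 6.02 and the DMHF rats from -13.6 to 10.6, so that the DMHF group covered the whole control range. Its difference was 5.45 without DMHF rat 1 and -0.622 without DMHF rat 2.

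Grin3a and Grin3b, whose GluN3 products bind glycine and lower the calcium permeability of receptors that contain them, were also dim, with mean levels of 7.02, 6.65 and 6.29. For Grin3a (1370601_a_at) the control rats ran from -13.9 to 8.78 millionths and the DMHF rats from -6.20 to 6.18. The difference was 1.19 millionths (SE 4.36), or 0.164 SD with an interval from -1.20 to 1.53, and it turned to -2.30 without control rat 5. The brighter Grin3b probe set, 1387559_at, had control rats at 0.234, 0.253, 0.442, -0.507 and -0.421 and DMHF rats at 0.707, 0.425, 0.932, -0.105 and 1.22. DMHF rats 1, 3 and 5 lay above every control, and DMHF rat 4 below 3 of them. The difference was 0.635 millionths (SE 0.354), or 1.35 SD with an interval from -0.358 to 3.06 (limma unadjusted p = 0.107, adjusted p = 0.945; exact permutation p = 0.0794). It was the single probe set of the 13 that was more than 1 SD higher, where 9.26% of all probe sets were. It ranged from 0.490 without DMHF rat 5 to 0.820 without DMHF rat 4. The other Grin3b probe set, 1381040_at, had a difference of 0.0308 millionths (SE 0.837), that is 0.0229 SD (interval -1.39 to 1.43).

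**Figure D3:**
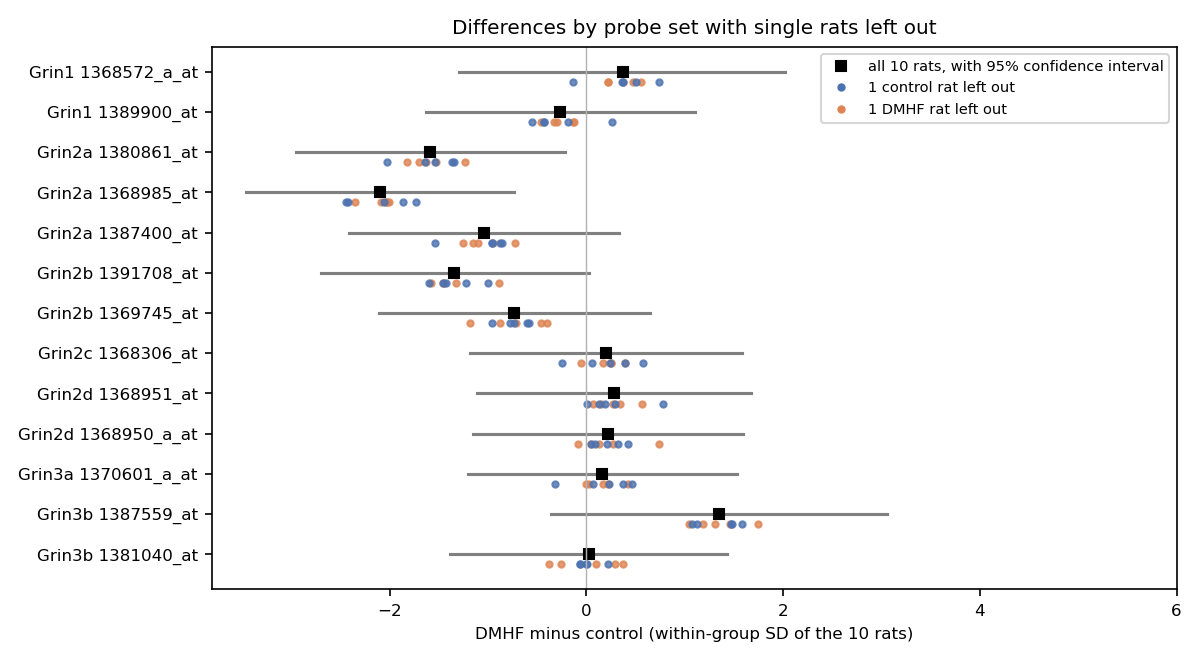
DMHF minus control for each of the 13 probe sets, in within-group SD of the 10 rats, on the horizontal axis. Squares are the values with all rats and lines their 95% confidence intervals from limma, and the dots beneath are the values with 1 control rat (blue) or 1 DMHF rat (orange) left out. All dots of the Grin2a and Grin2b probe sets lie below 0, and the intervals of the 2 Grin2a probe sets 1380861_at and 1368985_at do not reach 0.

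**Figure D4:**
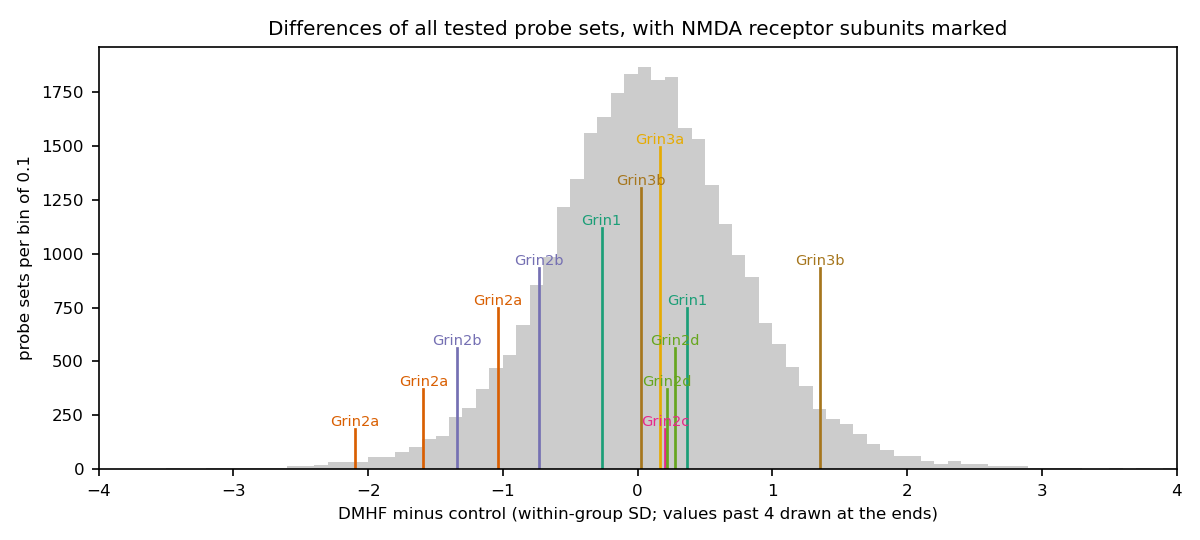
Histogram of DMHF minus control, in within-group SD, over the 31042 probe sets (vertical axis, probe sets per bin of 0.1), with the 13 probe sets of the NMDA receptor subunits as labelled vertical lines whose height has no meaning. The 3 Grin2a lines stand at -2.10, -1.59 and -1.04, and 8 of the 13 lines lie within 1 SD of 0.

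Of the 13 probe sets, 4 were more than 1 within-group SD lower in DMHF (3 of Grin2a, 1 of Grin2b), where 6.93% of all probe sets were. The absolute spread behind these values differed strongly between probe sets of 1 gene. The SD over the 10 rats was 176 millionths for 1368985_at, wider than or equal to that of 99.4% of all probe sets, and 4.96 millionths for 1387400_at, at the 76.4th percentile. For Grin1 it was 40.6 (97.8th percentile) and 0.497 millionths (11.0th percentile). The processing step behind these spreads is not stated in the sources used here.

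The brightest Grin2a probe set was followed across rats by the other 2 and by the brighter Grin2b probe set. Over the 10 rats, Pearson's r with 1380861_at was 0.88 for 1368985_at and 0.89 for 1387400_at (Spearman's rho 0.84 and 0.87). It was 0.90 for Grin2b 1391708_at (rho 0.90). These are descriptions over 10 rats that share their arrays and the difference between groups. With each group centred on its own mean the same 3 r were 0.77, 0.86 and 0.85. The remaining pair of Grin2a probe sets, 1368985_at and 1387400_at, was less alike (r = 0.65, rho = 0.66, and r = 0.47 with groups centred). The other Grin2b probe set followed Grin2a less closely (r = 0.39 and rho = 0.31 with 1380861_at). Likeness was not confined to Grin2a and Grin2b. Grin2d 1368950_a_at had r = 0.62 with Grin2b 1391708_at (rho = 0.32), and r = 0.88 with groups centred. The pair of Grin1 probe sets gave r = 0.58, that of Grin2d -0.09 and that of Grin3b -0.35, so that probe sets of 1 gene did not always order the rats alike.

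Among 13982 other named genes, 1 probe set per gene, those most like Grin2a (1380861_at) over the 10 rats by Pearson's r were Stox2, Wdr36, Sv2b, Cplx2 and Phactr1. Sv2b encodes a synaptic vesicle glycoprotein, Cplx2 a complexin that binds the vesicle fusion machinery, and Phactr1 a regulator of protein phosphatase 1 and actin. Their r were 0.95, 0.95, 0.95, 0.93 and 0.92 (rho 0.95, 0.96, 0.98, 0.88 and 0.96). Without control rat 4 and DMHF rat 1, the rats farthest from the median of Grin2a, r lay between 0.92 and 0.97. They were picked as the highest of all genes, so these r carry no test, and because Grin2a was nominally lower in DMHF they are no independent sign of a difference. Cplx2 (1368584_a_at) had control rats at 18.2, -46.0, 25.4, 0.774 and 1.67 millionths and DMHF rats at -88.3, -52.4, -14.7, -64.2 and -50.3, with control rat 2 low and DMHF rat 3 high as for Grin2a. Further probe sets of these genes followed Grin2a less closely. For Sv2b r was 0.48 (1369627_at) and -0.47 (1375142_at), for Stox2 0.10 (1376815_at) and 0.60 (1378798_at), and for Wdr36 -0.17 (1377619_at) and 0.82 (1385804_x_at). For Grin2b (1391708_at) the 5 were Xkr4, Grin2a, Stox2, Ttc14 and Sv2b (r from 0.91 down to 0.87), and without control rat 1 and DMHF rat 1 their r were 0.62, 0.85, 0.72, 0.49 and 0.80. For Grin1 (1368572_a_at) they were Dus1l, Bri3, Tnfrsf25, Lto1 and Ears2 (r from 0.92 down to 0.89), and without control rats 1 and 5 r was 0.49 for Bri3 and 0.85 for Dus1l.

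**Figure D5:**
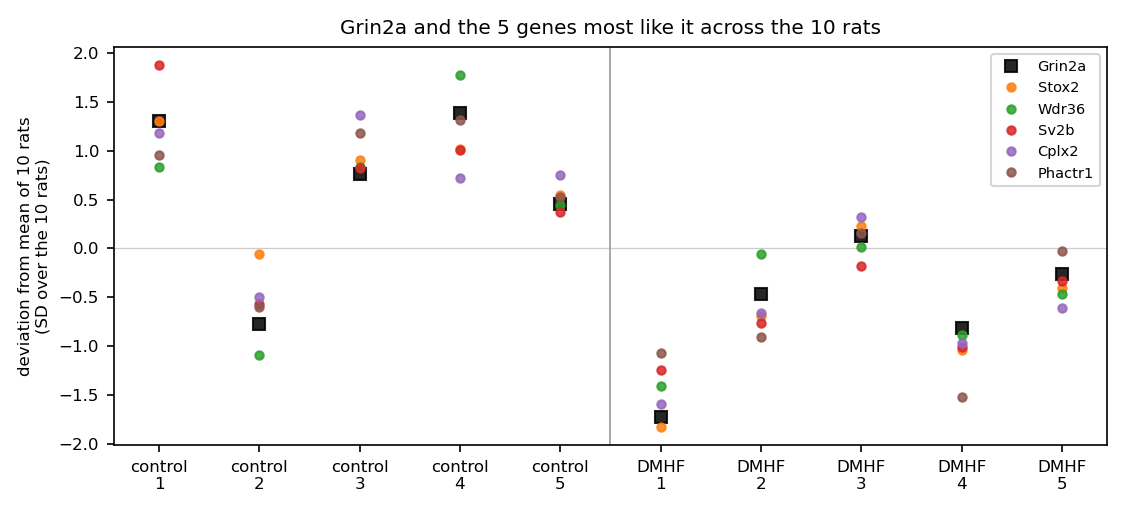
Deviation of each rat from the mean of the 10 rats, in SD over the 10 rats, for Grin2a 1380861_at (squares) and the 5 genes with the highest Pearson's r to it (dots), by group and replicate number. The genes were chosen for this likeness. Control rat 2 lies below 0 for all 6 genes, and DMHF rat 1 is the lowest rat for all of them except Phactr1.

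The other glutamate receptor families are given with 1 probe set per gene, the brightest, for which 47.0% of 14217 genes were nominally lower in DMHF and the median difference was 0.0477 SD. On that footing 2 of the 7 NMDA receptor genes (Grin2a and Grin2b) were lower, with a median of 0.204 SD. All 4 AMPA receptor genes, which carry the fast excitatory current, were nominally lower, with a median of -0.707 SD, as were 4 of 5 kainate receptor genes (-0.435 SD) and 3 of 7 measured metabotropic receptor genes (median 0.112 SD). With the probe set of widest spread per gene, 3 of the 7 NMDA receptor genes were lower (median 0.0229 SD), and the other families had 4 of 4 (-1.06 SD), 4 of 5 (-0.435 SD) and 2 of 7 (0.183 SD). Of the 16 genes of other families, 0 passed limma over all probe sets and 0 had an unadjusted p under 0.05, where 1.83% of the 14217 genes were listed lower and 2.98% higher. A common array median left each of these counts as it was, and quantile normalization left 1, 1 and 0 genes of the 3 families to test, each of them lower. Gria1, a subunit of AMPA receptors, differed by -6.03 millionths (SE 3.64), Grik4, of kainate receptors, by -2.29 (SE 1.10), and Grm3, a metabotropic receptor of neurons and astrocytes, by -2.12 (SE 1.01), with limma adjusted p of 0.950, 0.931 and 0.931. The families were not tested against each other.

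Around the receptor, 0 of 66 measured pathway genes passed limma over all probe sets, and 0 had an unadjusted p under 0.05 by limma, beside the same 1.83% lower and 2.98% higher over all genes. Of 17 scaffold genes of the postsynaptic density, 12 were nominally lower (median -0.550 SD, but -0.0918 SD with the probe set of widest spread per gene), and so was 1 of the 3 that quantile normalization left to test. The smallest p belonged to Dlg2, which encodes PSD-93, a scaffold that binds the tails of GluN2 subunits (-8.02 millionths, SE 3.69; control rats -9.74 to 6.86, DMHF rats -13.9 to 0.609; adjusted p = 0.931). Shank1, a scaffold beneath it, differed by -0.736 (SE 0.440), and Nefl, a neurofilament that binds GluN1, by -1.89 (SE 1.14). Of 19 kinases, phosphatases and calcium effectors, 13 were nominally lower (median -0.228 SD). Src, a tyrosine kinase that enhances the channel (-1.25, SE 0.818), led in p. Kalrn (-2.15, SE 1.46) and Csnk2a1, a catalytic subunit of casein kinase (5.75, SE 4.09), came next. For Csnk2a1, control rat 1 lay at -16.8, the other control rats from 2.29 to 5.83 and the DMHF rats from 3.91 to 7.33.

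Genes that make, break down or transport the ligands went both ways. Of 10 genes for the synthesis, breakdown or transport of glycine, D-serine and their precursors, 5 were nominally lower and 5 higher (median -0.00576 SD). These counts mix genes that raise and genes that lower the co-agonists. Phgdh, the entry enzyme of serine synthesis, differed by 10.2 millionths (SE 5.46), Slc6a9, the glycine transporter of glia, by 16.6 (SE 9.87), and Slc7a10, a transporter of D-serine and other neutral amino acids, by -5.54 (SE 3.76). Of 7 genes for glutamate supply and uptake, 4 were nominally lower (median -0.0433 SD), but 2 with the probe set of widest spread. Slc1a2, the main astrocytic glutamate transporter, differed by -8.20 (SE 5.82), Slc1a3, another astrocytic transporter, by 1.16 (SE 0.925), and Slc17a6, a vesicular glutamate transporter of subcortical neurons, by 23.1 (SE 20.8). Of 13 trafficking and surface partners, 6 were nominally lower, or 7 with a common array median (median 0.0953 SD). The list was drawn up with Ephb2, but Ephb1 was measured in its place and is among the 6 (-0.135 millionths, SE 1.11). The partners also included Cask (-2.60, SE 1.48), which links NMDA receptor cargo to its motor, Gipc1 (0.530, SE 0.443) and Neto1, an auxiliary protein of kainate and NMDA receptors (-30.4, SE 27.6).

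The control and DMHF rats overlapped in the mean level of each list of region and cell type markers. The mean deviation of the 7 measured forebrain excitatory neuron markers ran from -0.639 to 0.939 within-group SD among control rats and from -1.27, in DMHF rat 1, to 0.735 among DMHF rats, with 5 of 7 nominally lower, but 1 without DMHF rat 1, 2 without control rat 3 and 3 without control rat 4. For the 8 pan-neuronal markers the ranges were -0.366 to 0.320 and -0.553 to 0.517, with 3 of 8 lower, or 5 with a common array median or without DMHF rat 5 and 1 without DMHF rat 2. All 7 striatal markers were nominally lower (control rats -0.851 to 1.22, DMHF rats -1.16 to 0.537). That count was 2 of 3 after quantile normalization, and 5 without control rat 5 or DMHF rat 4. All 7 choroid plexus markers were nominally higher (control rats -1.02 to 1.04, DMHF rats -0.206 to 2.07). The count of 2 lower among the 7 cerebellar markers was 0 without control rat 1 or 5 or DMHF rat 2 or 3, 4 without control rat 2 or DMHF rat 1, 4 or 5, and 5 without control rat 4. For these markers DMHF rats 1, 4 and 5 lay at 1.28, 0.902 and 0.763 and DMHF rats 2 and 3 at -0.940 and -0.749, and control rats ran from -0.651 to 1.11. Of the other lists, 3 of 8 astrocyte, 5 of 7 oligodendrocyte, 5 of 8 microglial and 6 of 8 endothelial markers were nominally lower. With 1 rat left out these counts ran from 2 to 4, 3 to 7, 4 to 7 and 5 to 7. The oligodendrocyte count was 3 without DMHF rat 2, and 7 without control rat 2 or 3 or DMHF rat 1 or 4. The means of these lists, in the same order, ran from -0.841 to 0.515, from -0.844 to 0.536, from -0.449 to 0.387 and from -0.548 to 0.486 SD among control rats. Among DMHF rats they ran from -0.463 to 0.632, from -1.55 to 0.644, from -0.852 to 0.205 and from -1.06 to 0.0233. No marker was at the lowest deposited value of 5.25. Of 67 markers 0 passed limma over all probe sets and 2 had an unadjusted p under 0.05, Gfap of astrocytes (16.1 millionths, SE 6.22) and Folr1 of the choroid plexus (41.5, SE 17.4), both higher, where 2.98% of the 14217 genes were listed higher. The part of tissue composition in the Grin2a and Grin2b values was not tested.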

How the data were processed

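The authors deposited 1 table of processed values, 1 column per array, taken here as log2 expression from its range of 5.25 to 14.22. The log base, background correction, normalization and summary of probe sets are not stated in the sources used here. R 2.7.2 was used, per the submitters' processing notes. The values held 10 arrays of biological replicates per the labels' titles, which give the groups, and the number of arrays limits the precision. Control probe sets (57) were left out. Gene names came from GEO's annotation of the platform (20826 probe sets with 1 gene, 436 with several, 9780 unnamed). For 20758 of the probe sets with 1 gene, the gene identifier matched NCBI's table of rat genes (assembly GRCr8). Coordinates are not printed.

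DMHF was set against control with limma 3.58.1 in R 4.3.3 (lmFit, eBayes, two-sided, all arrays, no covariate, prior degrees of freedom 0.841), adjusted by Benjamini-Hochberg over 31042 probe sets at a threshold of 0.05. The SE is limma's moderated SE. The exact permutation test, two-sided on the mean difference, used all 252 assignments, with a smallest possible p of 0.00794. The fit was tested on simulated data. The members and gene lists were chosen with earlier results of these data known. All subunit probe sets were named, up to 3 genes per pathway list by p, and the 5 genes most like Grin1, Grin2a and Grin2b by r. Alternatives were a replicate block, quantile normalization, a common array median, brighter probe sets alone, array weights, 1 probe set per gene, the permutation test, a robust and trended variance and each array left out.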

Additional observations from a re-analysis of the deposited data

Results flagged for a closer look

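In 26 groups of 5 rats (13 probe sets, each in control and DMHF), 3 held a rat whose gap to the nearest other was, as a share of the group's whole range, above Dixon's 95% critical value for 5 values, which chance gives in about 1 of 20 groups. DMHF rat 3 lay at -133 millionths for Grin2a 1368985_at, the highest of its group (gap 0.795 of the range), and without it the difference was -284 millionths (limma unadjusted p = 0.00563). Control rat 2 lay at -9.15 for Grin2a 1387400_at (gap 0.847), and without it the difference was -7.00 (limma unadjusted p = 0.00608). Control rat 3 lay at 1.09 for Grin3b 1381040_at (gap 0.748), where the difference without it was 0.304 (limma unadjusted p = 0.743).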

How the results depend on the processing

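No subunit probe set passed limma at an adjusted p under 0.05 in any alternative. Over all probe sets the count was 0, except 13 after quantile normalization and 0 to 1 with single arrays left out (1 without DMHF rat 2). With a common array median, limma unadjusted p was 0.838 for Grin3b 1387559_at (0.107 as deposited) and 0.326 for Grin2a 1387400_at (0.120). It was 0.560 for Grin2b 1369745_at (0.260) and 0.963 for Grin1 1368572_a_at (0.626). For Grin2a 1380861_at and 1368985_at it was smaller, 0.0211 (0.0275) and 0.00332 (0.00702). Quantile normalization left 10076 probe sets and 5 of the 13; it moved Grin2a 1380861_at to -6.73 (limma unadjusted p = 0.530) and 1368985_at to -184, and its value for Grin2b 1369745_at, -30.4, lies outside the deposited values of all rats. The labels do not say whether the replicate numbers pair the arrays, and a pairing was not tested. Deviations of same-numbered arrays had r from 0.0288 to 0.273, all positive, and 3 of 5 controls correlated best with their own number. With the numbers as a block, Grin2a differed at an unadjusted p of 0.0160 (1368985_at) and 0.0703 (1380861_at) by limma. In that fit 0 probe sets were called, and the smallest adjusted p over all probe sets was 0.172, against 0.698 without the block. All 84 alternative values of the Grin2a and Grin2b probe sets kept their sign, but for many of them the sign was fixed in advance. The permutation test, the replicate block, the robust and trended variance and both selections of probe sets change p and leave the difference as it was. Fits with 1 array left out share most of their arrays, so these counts of signs are no measure of robustness. Of 214 values for the 13, 14 had the other sign: Grin3a at -0.0157 with array weights, Grin3b 1381040_at at -0.0154 with a common array median, and the rest with 1 array left out. Those ranges were -0.0695 to 0.381 for Grin1 1368572_a_at, -23.4 to 11.2 for Grin1 1389900_at, -0.562 to 1.32 for Grin2c, -0.622 to 5.45 for Grin2d 1368950_a_at, -2.30 to 3.38 for Grin3a and -0.517 to 0.501 for Grin3b 1381040_at. The cause was not tested.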
